A study of Mus musculus with 8 samples.

Results

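The genes described here are 46 regulators and effectors of the cell division cycle, a gene group set by name: 9 that act in G1 and at the entry to S phase, 11 of DNA replication and nucleotide supply, and 26 of G2 and mitosis. All 46 had a row among the 37583 gene rows of each library, and 43 of the 46 were among the 15228 genes with enough counts to be tested. E2f8, Ccnb1 and Ttk were too low to be tested. Division of cells in adult kidney is rare at rest and rises after tubular injury, when surviving tubule cells, fibroblasts and leukocytes can enter the cycle. Mitogens raise D-type cyclins, whose kinases phosphorylate the retinoblastoma protein and release E2F factors, and E2F factors then switch on cyclin E and the replication machinery. Genes of G2 and mitosis are switched on later in the cycle, under control of the DREAM and MuvB complexes with B-MYB and FOXM1. These complexes recognise the CHR elements of the promoters, and CCAAT boxes often lie in the same promoters.

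The study measured transcripts of whole mouse kidneys by RNA sequencing, from total RNA with a directional library kit. The 4 libraries labelled knockout came from mice given as b-actinCreERT2+ TFAP2Bfl/fl, in which a tamoxifen-responsive Cre recombinase driven by the beta-actin promoter can delete floxed Tfap2b in all cell types that express the promoter. The 4 libraries labelled wildtype came from control littermates. The labels give no age, sex or tamoxifen schedule, and do not say whether the littermates carried Cre, floxed alleles or received tamoxifen. Nothing ties a replicate number to a litter or a day. The p-values set the group difference against the spread within the groups and treat the 8 libraries as independent.

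Gene counts per library lay between 13435113 and 17930347, and the counts over the 46 genes between 6436 and 9635 in libraries labelled knockout and between 5420 and 8187 in those labelled wildtype. The targeted gene, Tfap2b (ENSMUSG00000025927), went against its label. In CPM, the count scaled to the size of its library with TMM factors, it had 238.1, 266.5, 237.0 and 240.3 with the knockout label, against 94.3, 104.9, 110.5 and 102.8 with the wildtype label, a log2 fold change of 1.25 ± 0.074 (SE; edgeR, adjusted p = 4.18e-06). The counts are per gene and do not show whether the floxed exons were lost, so every direction below is one between libraries labelled knockout and libraries labelled wildtype. Defining markers of kidney tubule and glomerulus were present, with no gene of that list at 0. Markers of other cells moved with the label too. Of 15 macrophage and dendritic cell markers tested, 12 rose, of 10 injured tubule markers 7 rose, of 9 fibroblast and pericyte markers 5 rose, and of 11 kidney tubule and glomerulus markers 8 fell and 2 rose. Over all 15228 genes tested, 6.23% rose and 5.7% fell. In a whole-organ sample, more cells of a type and more RNA per cell cannot be told apart.

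In the fit across all genes, 19 of the 43 tested cell cycle genes rose in libraries labelled knockout, 1 fell and 23 did not pass (edgeR quasi-likelihood test, Benjamini-Hochberg adjusted p under 0.05). Over all 15228 genes tested, 6.23% rose and 5.7% fell, or 11.9% in either direction. The 3 stages of the cycle differed in their shares. Of the tested genes of mitosis 15 of 24 rose, or 62.5%, of those of G1 3 of 8 rose, or 37.5%, and 1 fell, and of those of replication 1 of 11 rose, or 9.09%. The median log2 fold change was 1.15 for mitosis, 0.42 for replication and 0.26 for G1, against 0.00 over all genes tested. The difference between these shares was not tested, since the genes of a stage are not independent of each other. Without overlap between the groups, 19 of 24 mitosis genes, 5 of 11 replication genes and 4 of 8 G1 genes were higher in all 4 libraries labelled knockout, against 9.42% of all genes tested.

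**Figure D1:**
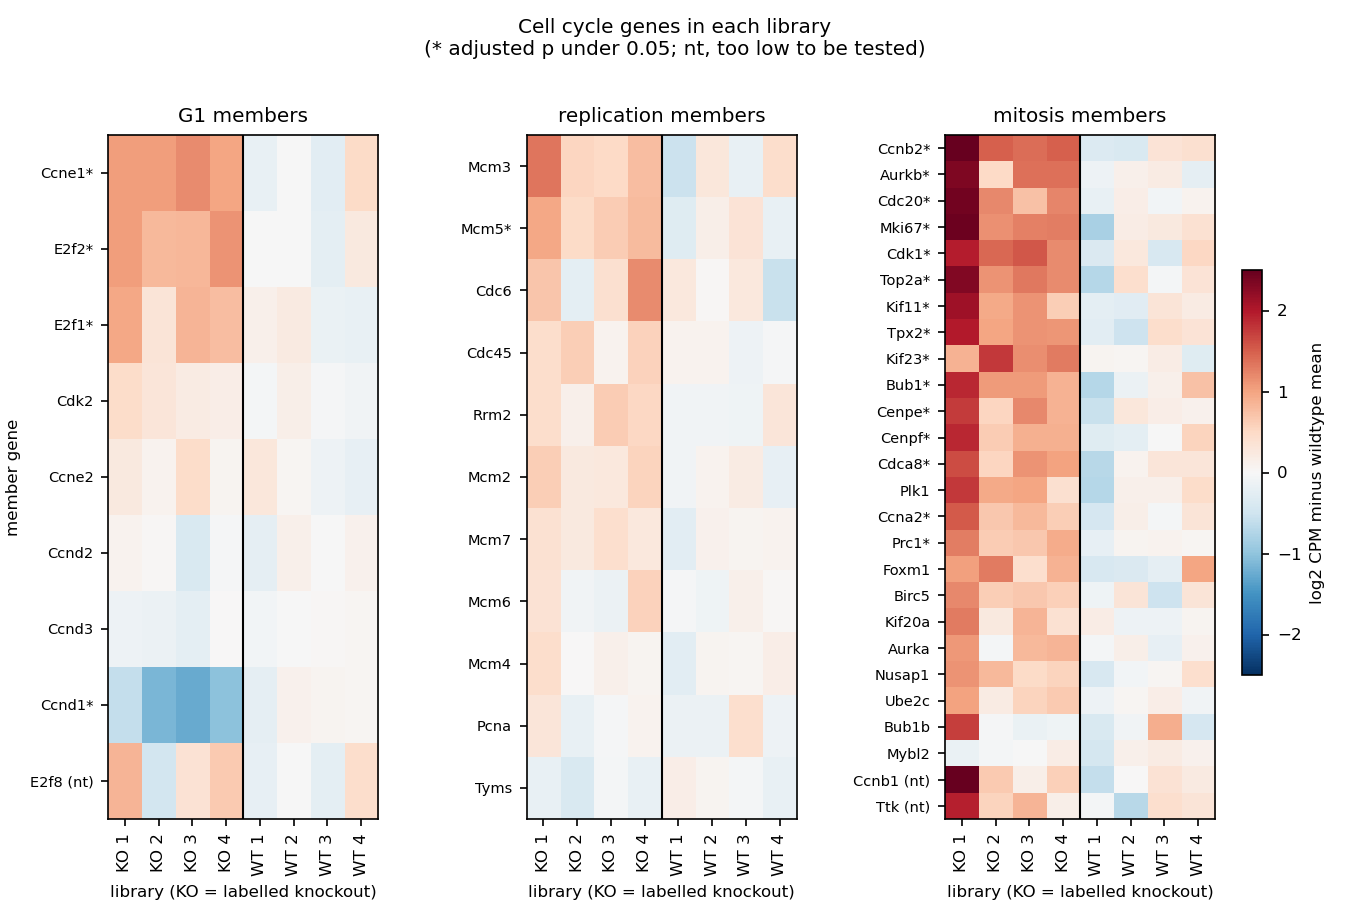
Each square gives the log2 CPM of 1 gene in 1 library, minus the mean of the 4 libraries labelled wildtype, with libraries labelled knockout (KO) left of those labelled wildtype (WT); a star marks an adjusted p under 0.05 and nt a gene too low to be tested. Most mitosis squares are red in the KO columns, above all in KO 1, with Mybl2 pale in all of them, while the G1 panel holds the single starred blue row, Ccnd1.

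**Figure D2:**
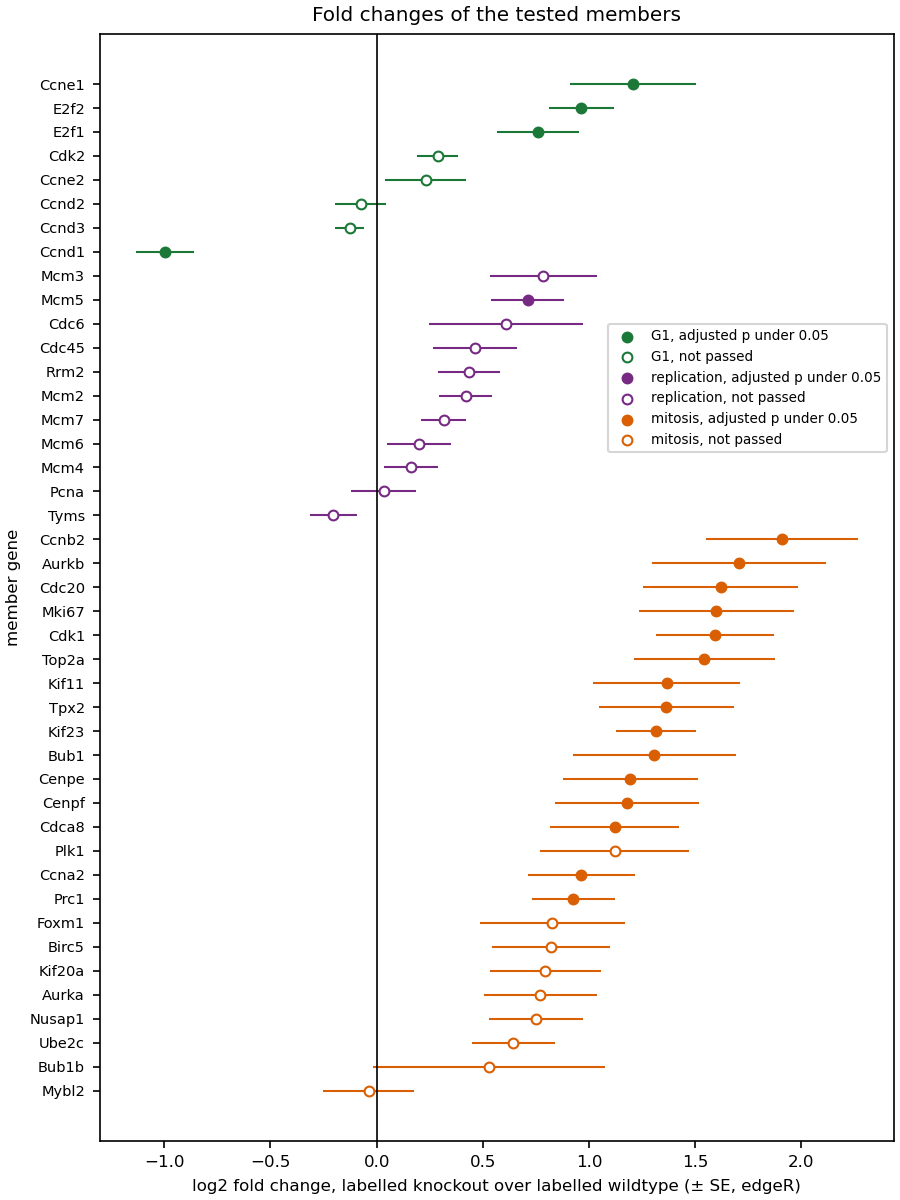
Log2 fold change of each of the 43 tested genes, libraries labelled knockout over libraries labelled wildtype, with its standard error; filled points passed an adjusted p of 0.05. Filled mitosis points lie between 0.93 and 1.91, Mcm5 is the filled point among the replication genes, and Ccnd1 at -1.0 is the filled point on the negative side.

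The promoters of 5 of the genes are printed below as those with the smallest adjusted p, 3 of mitosis and 2 of the earlier stages, among genes with a searched motif in their window. Kif23, Cdk1, Ccnb2 and E2f2 kept their call under every alternative setting, and Mcm5 is the replication gene that rose. The sequences are RefSeq's for GRCm38.p6, 200 bases each, 170 before the transcription start and 30 from it, on the strand of the gene. Capitals mark the motifs searched on both strands: the CHR element (TTTGAA or TTCGAA), the CCAAT box (CCAAT, or ATTGG on the other strand), the E2F site (TTTCCCGC, TTTCGCGC, TTTGCCGC or TTTGGCGC) and the AP-2 site (GCCNNNGGC), which is the recognition motif of the family that Tfap2b belongs to. The Kif23 window is chr9:61946770-61946969 on the minus strand, Cdk1 chr10:69352883-69353082 on the minus strand, Ccnb2 chr9:70421525-70421724 on the minus strand, E2f2 chr4:136172104-136172303 on the plus strand and Mcm5 chr8:75109339-75109538 on the plus strand.
Kif23: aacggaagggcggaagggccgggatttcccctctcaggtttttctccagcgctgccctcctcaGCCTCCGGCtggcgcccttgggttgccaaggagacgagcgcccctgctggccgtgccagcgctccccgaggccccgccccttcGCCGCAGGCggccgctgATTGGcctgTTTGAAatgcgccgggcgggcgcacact
Cdk1: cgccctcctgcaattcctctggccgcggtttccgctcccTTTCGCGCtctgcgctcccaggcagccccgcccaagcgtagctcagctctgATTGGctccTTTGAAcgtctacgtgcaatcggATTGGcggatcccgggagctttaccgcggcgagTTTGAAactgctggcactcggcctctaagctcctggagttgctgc
Ccnb2: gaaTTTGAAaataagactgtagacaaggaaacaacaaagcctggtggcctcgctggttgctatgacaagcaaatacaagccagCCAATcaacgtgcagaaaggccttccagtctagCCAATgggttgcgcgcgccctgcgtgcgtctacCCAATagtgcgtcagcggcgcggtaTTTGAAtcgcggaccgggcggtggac
E2f2: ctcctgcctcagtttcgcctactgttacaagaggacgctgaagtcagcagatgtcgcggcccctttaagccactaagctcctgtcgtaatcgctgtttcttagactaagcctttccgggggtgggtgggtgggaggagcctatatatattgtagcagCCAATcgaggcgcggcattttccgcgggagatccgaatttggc
Mcm5: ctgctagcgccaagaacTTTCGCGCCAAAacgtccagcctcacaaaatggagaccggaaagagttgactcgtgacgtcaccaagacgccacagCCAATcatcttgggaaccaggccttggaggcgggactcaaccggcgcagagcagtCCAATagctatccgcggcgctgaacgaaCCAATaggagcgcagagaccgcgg
In Ccnb2 the 3 CCAAT boxes lie 33 bases apart from each other, a CHR element begins at base 5 of the transcript and another lies upstream of the boxes. In Cdk1 the 2 printed CCAAT boxes lie 32 bases apart, each is followed by a CHR element, and an E2F site lies upstream of them. In Kif23 1 CCAAT box and 1 CHR element lie at the start, downstream of 2 AP-2 matches. Mcm5 has 2 E2F matches on opposite strands that share bases, and 3 CCAAT boxes, with no CHR element. E2f2 shows 1 CCAAT box.

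Across the 300-base windows of RefSeq (250 bases before the start and 50 from it, the most upstream window of a gene), 37 of the 46 genes had a sequence. A CHR element was present in 16 of 21 mitosis windows (76.2%), 3 of 10 replication windows and 1 of 6 G1 windows (16.7%), against 19.5% of all 27025 windows. At least 2 CCAAT boxes together with a CHR element were present in 11 of the 21 mitosis windows (52.4%), against 2.42% of all windows. E2F sites had the other distribution, with 5 of 10 replication windows, 2 of 6 G1 windows (33.3%) and 1 of 21 mitosis windows (4.76%), against 2.33% of all windows. The AP-2 motif was present in 7 of 21 mitosis windows (33.3%), 2 of 10 replication windows and 4 of 6 G1 windows (66.7%), against 16.5% of all windows and 24.6% of the windows of tested genes. These matches describe letters in the windows; binding was not measured.

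Among the G1 genes Ccnd1 fell while Ccne1, E2f1 and E2f2 rose, and the other 4 tested did not pass. Ccnd1 (ENSMUSG00000070348; chr7:144929931-144939925, minus strand, GRCm38) encodes cyclin D1, which activates CDK4 and CDK6 in response to mitogens. Its level was 108.0, 74.2, 68.0 and 80.0 CPM in libraries labelled knockout and 140.3, 176.4, 171.2 and 170.8 CPM in those labelled wildtype. Every library labelled knockout lay below every library labelled wildtype, as for 9.05% of all genes tested, and knockout 1 and wildtype 1 were the nearest to each other. The log2 fold change was -1.0 ± 0.14 (SE; edgeR, adjusted p = 0.00167), and the exact two-sided permutation p over the 70 assignments was 0.0286, the smallest that 4 libraries against 4 can give. Without knockout 1 it was -1.15.

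The other D-type cyclins did not pass: Ccnd2 showed a log2 fold change of -0.07 ± 0.12 (adjusted p = 0.731, edgeR) and Ccnd3 one of -0.13 ± 0.068 (adjusted p = 0.266). Per kilobase of exon, Ccnd1 averaged 17.5 CPM in libraries labelled knockout and 35.0 CPM in those labelled wildtype, Ccnd3 6.92 and 7.54 CPM, and Ccnd2 2.26 and 2.38 CPM. Cyclin D1 was therefore still the most abundant of the D-type cyclin transcripts per length in both groups. Its share of their summed level was 70.9, 63.0, 63.9 and 63.2% in libraries labelled knockout and 76.3, 78.8, 78.3 and 77.9% in those labelled wildtype. Exons of Lto1, a gene on the opposite strand, cover 23.4% of the Ccnd1 exons, and reads there cannot be told apart where counting ignores strand. Ambiguous reads, 2.17 to 2.42% of the records of a library, were tallied apart from the gene counts. How many of them came from this pair is not known. Lto1 itself showed a log2 fold change of -0.10 (edgeR, adjusted p = 0.619).

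E2f2 (ENSMUSG00000018983; chr4:136172394-136196057, plus strand) encodes an activating E2F factor. Its level was 7.95, 6.79, 6.82 and 8.38 CPM in libraries labelled knockout and 3.77, 3.80, 3.20 and 4.55 CPM in those labelled wildtype. The libraries labelled knockout all lay above, with knockout 4 and not knockout 1 the highest, and the log2 fold change was 0.96 ± 0.15 (SE; edgeR, adjusted p = 0.00278). E2f1, its paralogue, stood at 5.90, 3.75, 5.42 and 5.13 CPM in libraries labelled knockout, against 3.24, 3.51, 2.62 and 2.61 CPM in those labelled wildtype. Knockout 2 came close to wildtype 2, and the log2 fold change was 0.76 ± 0.19 (edgeR, adjusted p = 0.027).

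Ccne1 encodes cyclin E1, the CDK2 partner at the entry to S phase. It was at 1.05, 1.05, 1.17 and 1.01 CPM in libraries labelled knockout, against 0.377, 0.438, 0.349 and 0.667 CPM in those labelled wildtype. The 4 values of the libraries labelled knockout are close to each other and all above the wildtype ones, and the log2 fold change was 1.21 ± 0.30 (SE; edgeR, adjusted p = 0.0232). Cdk2, the kinase, had no overlap between the groups but a small difference, with 24.0, 21.4, 20.02 and 19.4 CPM in libraries labelled knockout and 16.8, 19.3, 17.0 and 16.4 CPM in those labelled wildtype (log2 fold change 0.29 ± 0.097, adjusted p = 0.0803, edgeR). Ccne2, the second E-type cyclin, showed a log2 fold change of 0.23 ± 0.19 (adjusted p = 0.482). E2f8, an atypical repressor E2F, had 13, 4, 9 and 9 counts in libraries labelled knockout and 4, 5, 5 and 9 counts in those labelled wildtype. The call of Ccne1 was lost without any 1 of knockout 2, 3 and 4 and wildtype 1, 2 and 3, and that of E2f1 without any 1 of knockout 1, 3 and 4 and wildtype 3 and 4, with the highest adjusted p at 0.1003 for Ccne1 and 0.168 for E2f1 (edgeR). Those of Ccnd1 and E2f2 held in all 17 alternatives.

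**Figure D3:**
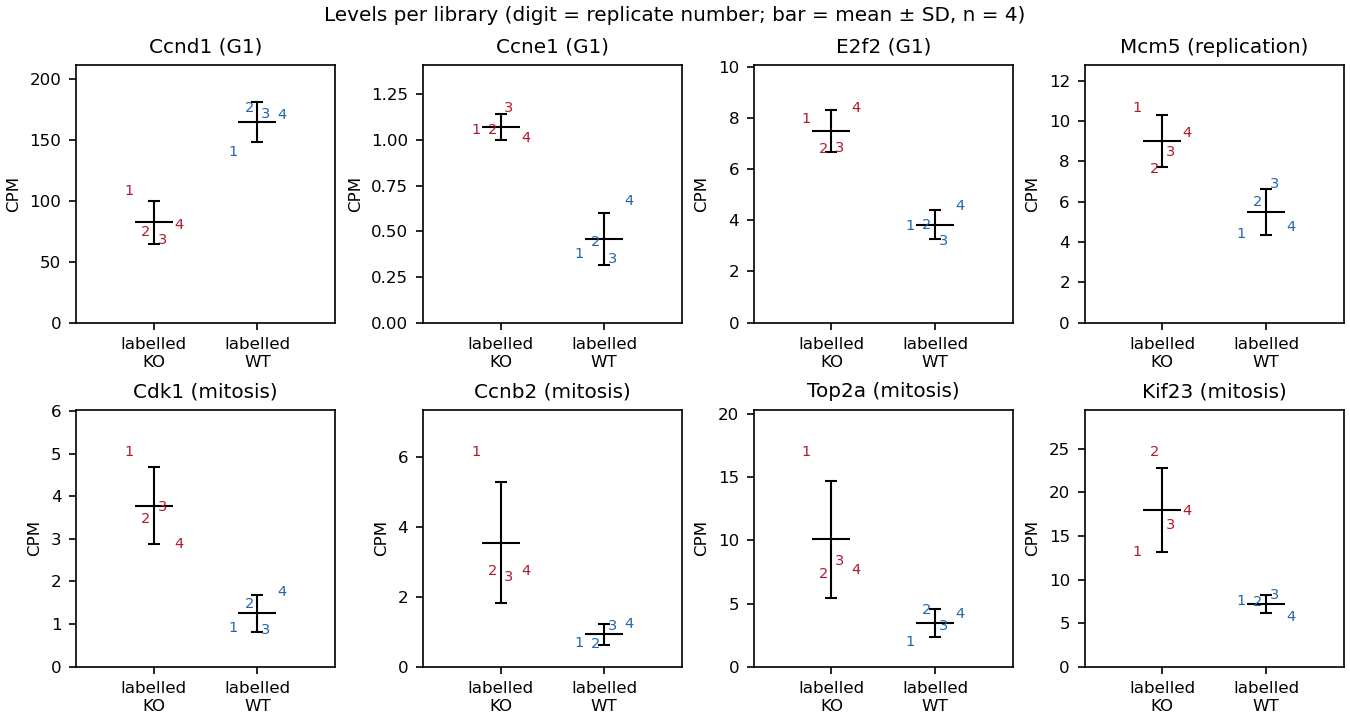
CPM of 8 genes in each library; digits are the replicate numbers, and bars give the mean and SD of 4 libraries, labelled knockout (left) and labelled wildtype (right). Ccnd1 is lower in libraries labelled knockout, the other 7 are higher, and knockout 1 stands above the other libraries labelled knockout for Ccnb2 and Top2a but below them for Kif23.

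Of the replication genes 1 of 11 rose, a share of 9.09% that is near the 6.23% of all genes tested, and 10 did not pass. Their median log2 fold change was 0.42, and 10 of the 11 fitted values were positive. Mcm5, a subunit of the MCM2-7 replicative helicase, was the one that rose, with 10.6, 7.61, 8.44 and 9.39 CPM in libraries labelled knockout and 4.37, 5.99, 6.87 and 4.73 CPM in those labelled wildtype. The groups did not overlap, with knockout 2 and wildtype 3 next to each other, and the log2 fold change was 0.71 ± 0.17 (SE; edgeR, adjusted p = 0.0221). The call was lost without knockout 4, without wildtype 1 and without wildtype 4, with log2 fold changes between 0.54 and 0.84 over all alternatives.

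Other helicase subunits lay lower or just outside the threshold. Mcm2 had 21.7, 16.8, 17.1 and 20.9 CPM in libraries labelled knockout and 13.4, 15.1, 16.3 and 12.3 CPM in those labelled wildtype, again without overlap (log2 fold change 0.42 ± 0.12, adjusted p = 0.0505, edgeR). Mcm3 had 14.6, 8.25, 8.05 and 9.75 CPM in libraries labelled knockout and 3.84, 6.94, 4.95 and 7.76 CPM in those labelled wildtype (log2 fold change 0.79 ± 0.25, adjusted p = 0.0704). The gap between the groups was narrow for both genes, at wildtype 3 for Mcm2 and wildtype 4 for Mcm3. Mcm7 showed a log2 fold change of 0.32 ± 0.11 (adjusted p = 0.0762, edgeR), Mcm6 one of 0.20 ± 0.15 (adjusted p = 0.431) and Mcm4 one of 0.16 ± 0.13 (adjusted p = 0.453). The subunits of this complex thus had fitted changes from 0.16 to 0.79 on the log2 scale.

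Of the genes that load or accompany the helicase, Cdc45 showed a log2 fold change of 0.46 ± 0.20 (adjusted p = 0.158, edgeR) and Cdc6, a loading factor, one of 0.61 ± 0.36 (adjusted p = 0.308). Pcna, the sliding clamp of the replicative polymerases and a common stain for cycling cells, had 16.8, 12.1, 13.4 and 14.6 CPM in libraries labelled knockout and 12.4, 12.3, 18.2 and 12.6 CPM in those labelled wildtype. The groups overlapped over nearly their whole range, with wildtype 3 the highest of all, and the log2 fold change was 0.03 ± 0.15 (adjusted p = 0.916, edgeR). Of the nucleotide supply enzymes, Rrm2, the cycle-regulated subunit of ribonucleotide reductase, showed a log2 fold change of 0.43 ± 0.15 (adjusted p = 0.0787), and Tyms, thymidylate synthase, one of -0.20 ± 0.11 (adjusted p = 0.266).

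Of the 19 genes that rose, 15 were genes of mitosis, where 9 of 24 tested did not pass, and the fitted log2 fold changes of the 15 ran from 0.93 to 1.91. Mki67 encodes Ki-67, a chromosome surface protein used as a stain for cycling cells. Its level was 19.2, 7.61, 8.28 and 8.45 CPM in libraries labelled knockout and 1.88, 3.87, 4.02 and 4.49 CPM in those labelled wildtype. The groups did not overlap, knockout 1 lay 2.37-fold above the mean of the other libraries labelled knockout, and wildtype 1 was the lowest (log2 fold change 1.60 ± 0.36, SE; edgeR, adjusted p = 0.0229). Top2a, topoisomerase II alpha, which untangles sister chromatids, had the same shape, with 17.0, 7.32, 8.39 and 7.65 CPM in libraries labelled knockout and 1.96, 4.46, 3.20 and 4.19 CPM in those labelled wildtype (log2 fold change 1.54 ± 0.33, adjusted p = 0.0167). Without knockout 1 the log2 fold changes of Mki67 and Top2a were both 1.17 and passed, while the call of Mki67 was lost without wildtype 2 or 3 and that of Top2a without wildtype 3.

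Of the kinase and cyclins of mitotic entry, Cdk1, Ccna2 and Ccnb2 rose. Cdk1 (ENSMUSG00000019942; chr10:69335146-69352938, minus strand), the kinase that starts mitosis, stood at 5.03, 3.45, 3.75 and 2.89 CPM in libraries labelled knockout, against 0.904, 1.46, 0.873 and 1.76 CPM in those labelled wildtype. The lowest library labelled knockout was well above the highest labelled wildtype, and the log2 fold change was 1.59 ± 0.28 (SE; edgeR, adjusted p = 0.00436). Its partner Ccnb2 (ENSMUSG00000032218; chr9:70407692-70421547, minus strand), cyclin B2, had 6.14, 2.75, 2.57 and 2.74 CPM in libraries labelled knockout and 0.678, 0.658, 1.16 and 1.21 CPM in those labelled wildtype. Ccnb2 had the highest fitted change of the 43 tested genes, with a log2 fold change of 1.91 ± 0.36 (edgeR, adjusted p = 0.0063) and of 1.5 without knockout 1. Ccna2, cyclin A2, rose by 0.96 ± 0.25 on the log2 scale (adjusted p = 0.031). Ccnb1, cyclin B1, was too low to be tested, with 43, 9, 6 and 7 counts in libraries labelled knockout and 2, 4, 7 and 6 counts in those labelled wildtype. Only knockout 1 stood apart for it.

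Of the genes that control chromosome segregation, Aurkb, Cdca8 and Cdc20 rose. Aurkb, the kinase of the chromosomal passenger complex, had 3.45, 0.878, 1.73 and 1.73 CPM in libraries labelled knockout and 0.527, 0.658, 0.698 and 0.485 CPM in those labelled wildtype (log2 fold change 1.70 ± 0.41, SE; edgeR, adjusted p = 0.0211). Knockout 2 lay just above the wildtype range and knockout 1 far above it. Among the partners of Aurkb in that complex, Cdca8, borealin, rose with a log2 fold change of 1.12 ± 0.30 (adjusted p = 0.0358), and Birc5, survivin, had one of 0.82 ± 0.28 (adjusted p = 0.0814). Cdc20, which activates the anaphase-promoting complex, had 7.48, 3.16, 2.24 and 3.18 CPM in libraries labelled knockout and 1.13, 1.46, 1.22 and 1.40 CPM in those labelled wildtype (log2 fold change 1.62 ± 0.37, adjusted p = 0.0168). Ube2c, the ubiquitin-conjugating enzyme of that complex, showed a log2 fold change of 0.64 ± 0.19 (adjusted p = 0.0545).

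Of the spindle checkpoint and kinetochore genes, Bub1, a checkpoint kinase, rose with a log2 fold change of 1.31 ± 0.38 (adjusted p = 0.0474, edgeR), Cenpe, a kinetochore motor, with 1.19 ± 0.32 (adjusted p = 0.0325), and Cenpf, a kinetochore protein, with 1.18 ± 0.34 (adjusted p = 0.0444). Without knockout 1 the value for Cenpf was 0.81, and the calls of Bub1, Cenpe, Cenpf, Cdca8 and Ccna2 were lost, as they were without wildtype 1, 2 or 3; all of these but Ccna2 were also lost without knockout 3 or 4. Cdca8 and Cenpe also lost theirs without wildtype 4, and Bub1 without knockout 2. Bub1b, the checkpoint protein BUBR1, rested on knockout 1, with 3.68, 0.995, 0.895 and 0.939 CPM in libraries labelled knockout and 0.753, 0.950, 2.04 and 0.728 CPM in those labelled wildtype (log2 fold change 0.53 ± 0.55, adjusted p = 0.582). Without knockout 1 its log2 fold change was -0.26. Ttk, the checkpoint kinase MPS1, had 27, 9, 12 and 5 counts in libraries labelled knockout and 4, 2, 8 and 7 counts in those labelled wildtype.

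Among the spindle genes, Kif11, the motor that separates the spindle poles, rose with a log2 fold change of 1.37 ± 0.35 (adjusted p = 0.027, edgeR), Tpx2, which activates Aurora A on the spindle, with 1.36 ± 0.32 (adjusted p = 0.0184), and Prc1, which bundles the midzone microtubules, with 0.93 ± 0.20 (adjusted p = 0.0115). The call of Kif11 was lost without wildtype 1, 2 or 4, that of Tpx2 without wildtype 1 and that of Aurkb without wildtype 1 or 4. Aurka, the kinase Aurora A, showed a log2 fold change of 0.77 ± 0.27 (adjusted p = 0.0859), Nusap1 one of 0.75 ± 0.22 (adjusted p = 0.0506), Kif20a, a motor of the midzone, one of 0.79 ± 0.26 (adjusted p = 0.0733), and Plk1, the Polo-like kinase, one of 1.12 ± 0.35 (adjusted p = 0.0611). Exons of the opposite-strand gene Cdc23 cover 29.3% of those of Kif20a, and Cdc23 showed a log2 fold change of -0.03 (adjusted p = 0.839). Exons of Tnnc2 cover 22.8% of those of Ube2c, but Tnnc2 held 1 count in all libraries together.

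Kif23 (ENSMUSG00000032254; chr9:61915905-61946774, minus strand), the motor subunit of centralspindlin that is needed for cytokinesis, was, with Mybl2, 1 of 2 tested mitosis genes whose lowest library labelled knockout was knockout 1. Its level was 13.2, 24.6, 16.2 and 17.9 CPM in libraries labelled knockout and 7.53, 7.38, 8.21 and 5.76 CPM in those labelled wildtype. In knockout 1 it stood at 0.672 of the mean of the other 3 libraries labelled knockout, where the median of this ratio over the 24 mitosis genes was 1.83. The log2 fold change was 1.31 ± 0.19 (SE; edgeR, adjusted p = 0.00168) and 1.44 without knockout 1, and Kif23 had the smallest adjusted p of the mitosis genes. The 2 transcription factors of the late cycle did not pass: Foxm1 stood at 4.03, 4.92, 2.63 and 3.61 CPM in libraries labelled knockout, against 1.43, 1.46, 1.63 and 3.94 CPM in those labelled wildtype, with wildtype 4 inside the knockout range (log2 fold change 0.83 ± 0.34, adjusted p = 0.145). Mybl2, which encodes B-MYB, had 1.93, 2.11, 2.18 and 2.53 CPM in libraries labelled knockout and 1.58, 2.41, 2.56 and 2.37 CPM in those labelled wildtype (log2 fold change -0.04 ± 0.22, adjusted p = 0.933). It is the 1 tested mitosis gene with a negative value, and stood in knockout 1 at 0.849 of the mean of the other 3 libraries labelled knockout.

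Summed over the 26 genes, mitosis transcripts came to 154.8, 96.0, 93.5 and 93.2 CPM in libraries labelled knockout and 38.3, 49.3, 51.6 and 55.6 CPM in those labelled wildtype, from 1290 to 2648 counts a library labelled knockout and 508 to 916 counts a library labelled wildtype. Per kilobase of exon, Mki67 averaged 1.08 CPM in libraries labelled knockout and 0.354 CPM in those labelled wildtype, Ccnb2 2.32 and 0.606 CPM and Kif23 2.27 and 0.914 CPM. Replication genes ran from Cdc6, with 0.260 CPM per kilobase in libraries labelled knockout and 0.169 CPM in those labelled wildtype, to Mcm6 with 7.95 and 6.90 CPM. Most of them lay above every mitosis gene in both groups. The highest mitosis values were 2.32 CPM for Ccnb2 in libraries labelled knockout and 1.25 CPM for Ube2c in those labelled wildtype. The number of mitosis genes that rose was 7 without wildtype 1, 8 without wildtype 2, 8 without wildtype 3 and 10 without knockout 1, against 15 with all libraries, while 4.49%, 4.76%, 4.35% and 6.37% of all genes tested rose in those 4 fits. It was 18 with DESeq2, 10 with limma voom and 21 with scaling by library totals, where 7.82%, 6.09% and 10.9% of all genes tested rose.

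Library by library, the mitosis genes split the libraries labelled knockout into knockout 1 and the rest. The mean difference of the 24 genes from the wildtype mean was 1.63, 0.78, 0.89 and 0.85 on the log2 scale in libraries labelled knockout, and -0.35, 0.01, 0.09 and 0.24 in those labelled wildtype. Replication genes had 0.53, 0.12, 0.26 and 0.47 in libraries labelled knockout and -0.11, 0.05, 0.09 and -0.02 in those labelled wildtype, and G1 genes 0.39, 0.16, 0.20 and 0.25 in libraries labelled knockout and -0.04, 0.08, -0.09 and 0.06 in those labelled wildtype. Knockout 1 was the highest of the 8 libraries for 21 of 24 mitosis genes, 4 of 11 replication genes and 2 of 8 G1 genes, against 16.0% of all genes tested. The other libraries labelled knockout also stood apart from the wildtype ones without it: for 19 of 24 mitosis genes, knockout 2, 3 and 4 all lay above every library labelled wildtype, against 13.3% of all genes tested. Without knockout 1, 10 of the 15 mitosis genes that rose were still called, in a fit where 6.37% of all genes tested rose.

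**Figure D4:**
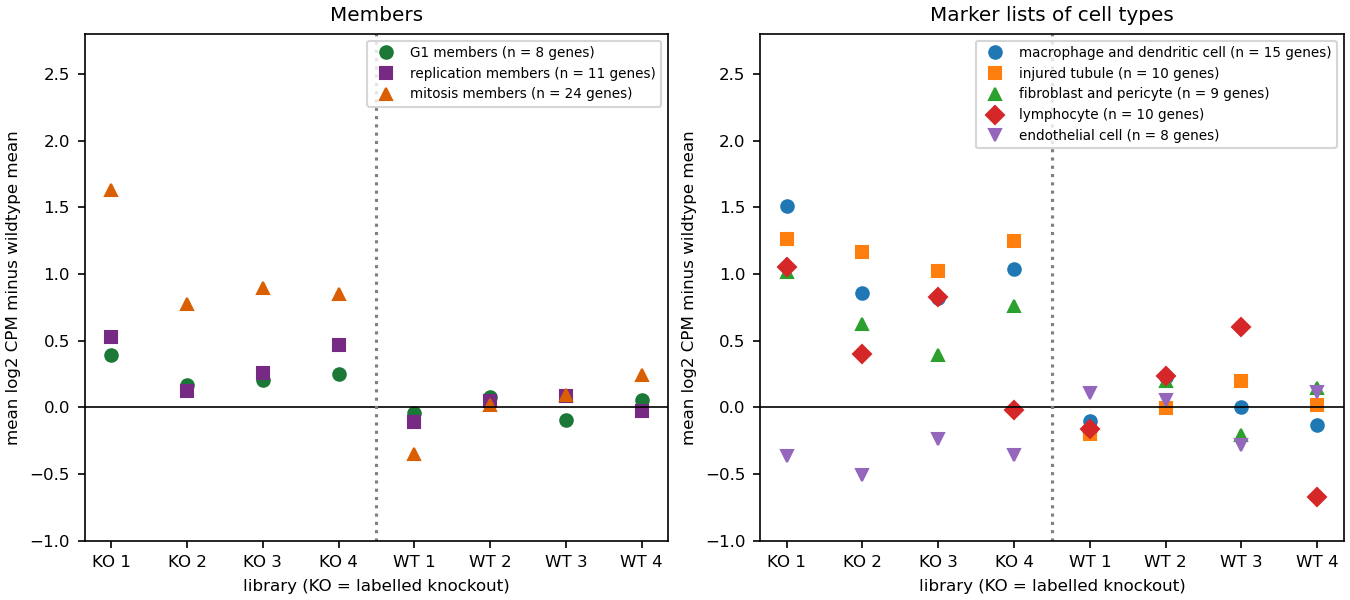
Mean log2 CPM minus the wildtype mean for the tested genes of each stage (left) and for marker lists of cell types (right), by library, with libraries labelled knockout (KO) left of those labelled wildtype (WT). The mitosis mean reaches 1.63 in KO 1, where the macrophage and dendritic cell mean is also at its highest, 1.51.

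Macrophage and dendritic cell markers were likewise highest in knockout 1. Their mean difference was 1.51, 0.85, 0.82 and 1.04 on the log2 scale in libraries labelled knockout and -0.10, 0.23, 0.00 and -0.13 in those labelled wildtype. Knockout 1 was the highest library for 14 of these 15 markers, against 16.0% of all genes tested. Their summed level ran from 438.4 to 680.8 CPM in libraries labelled knockout and from 271.6 to 340.9 CPM in those labelled wildtype, with no marker at 0. Lyz2 alone made up 95.5 to 214.8 CPM of the sums in libraries labelled knockout and 22.4 to 39.5 CPM in those labelled wildtype. While 12 of the 15 markers rose, Csf1r (log2 fold change 0.00) and Mertk (-0.30) were among those that did not pass. The fibroblast and pericyte list also peaked in knockout 1, with sums from 708.4 to 1103.2 CPM in libraries labelled knockout and from 431.4 to 571.3 CPM in those labelled wildtype. The injured tubule list had sums from 3565 to 4343 CPM in libraries labelled knockout, highest in knockout 1, and from 2316 to 3146 CPM in those labelled wildtype. Most of its markers did not peak in knockout 1, which was the highest library for 3 of 10, against 16.0% of all genes tested. Their mean log2 difference was 1.26, 1.16, 1.02 and 1.25 in libraries labelled knockout. Spp1 alone made up 2963 to 3478 CPM of the sums in libraries labelled knockout, and Clu, of the same list, had a negative log2 fold change of -0.43 that did not pass. Kidney tubule and glomerulus markers summed to 11733 to 14903 CPM in libraries labelled knockout and 20798 to 22354 CPM in those labelled wildtype. The part of these cell types in the mitosis result was not tested.

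Over all genes tested, 5.7% fell and 11.9% were called in either direction, so 0 calls in a short list say little. Of the remaining lists, lymphocyte markers gave 0 calls among 10 tested (edgeR, 1 at an unadjusted p under 0.05, 0 with DESeq2 and 0 with limma voom). Their sums ran from 18.4 to 72.4 CPM in libraries labelled knockout, highest in knockout 2, and from 14.5 to 27.5 CPM in those labelled wildtype. Cd8a alone made up 58.0 CPM of the sum in knockout 2. By mean log2 difference the list was highest in knockout 1, with 1.05, 0.40, 0.83 and -0.02 in libraries labelled knockout. That mean ran from -0.67 to 0.60 in libraries labelled wildtype. Knockout 1 was the highest library for 5 of the 10 markers, against 16.0% of all genes tested. Of 8 endothelial cell markers 3 fell, against 5.7% of all genes tested. The endothelial sums ran from 510.2 to 612.3 CPM in libraries labelled knockout and from 591.0 to 773.7 CPM in those labelled wildtype. Of 6 red cell and precursor markers tested 1 fell, Hba-a2, with 1, 0, 3 and 0 counts in libraries labelled knockout. It had 869, 503, 272 and 265 counts in those labelled wildtype. The other 5 did not pass, among them its paralogue Hba-a1 (log2 fold change -0.29, adjusted p = 0.553, edgeR), and the cause was not tested. Sums of that list ran from 157.3 to 362.8 CPM in libraries labelled knockout and from 372.5 to 837.5 CPM in those labelled wildtype. Adrenal cortex markers stood at 249.1 CPM in knockout 4, from 10.1 to 10.8 CPM in the other libraries labelled knockout and from 7.64 to 10.8 CPM in those labelled wildtype. Of the 9 adrenal genes 2 were tested and 0 called (edgeR, 0 at an unadjusted p under 0.05, 0 with DESeq2 and 0 with limma voom). Without knockout 1 and knockout 4 together, where 3.2% of all genes tested rose, 5 of the 15 mitosis calls remained, those of Mki67, Top2a, Cdk1, Ccnb2 and Kif23, and 2 of the 4 G1 calls, Ccnd1 and E2f2.

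Genes of the same stages outside the 46 were counted in the same fit, in which 6.23% of all genes tested rose. Of 34 other mitosis genes tested 6 rose (17.6%) and 28 did not pass, with a median log2 fold change of 0.77. Kif22, a chromosome arm motor, rose with a log2 fold change of 1.40 ± 0.20 (adjusted p = 0.00136, edgeR), Ckap2, a spindle protein, with 1.88 ± 0.39 (adjusted p = 0.0107), Anln, the cytokinesis scaffold anillin, with 1.38 ± 0.29 (adjusted p = 0.0119), Kif18b, a microtubule-shortening motor, with 1.49 ± 0.36 (adjusted p = 0.0217), and Ncaph, a condensin subunit, with 1.12 ± 0.29 (adjusted p = 0.0308). Spag5, the spindle protein astrin, was, like Kif23, lowest in knockout 1 and highest in knockout 2 among the libraries labelled knockout, with 19.99, 41.0, 31.9 and 33.3 CPM in libraries labelled knockout and 16.6, 11.8, 7.80 and 7.52 CPM in those labelled wildtype (log2 fold change 1.54 ± 0.30, adjusted p = 0.0133). Of 29 other replication genes tested 3 rose (10.3%, near the share over all genes) and 26 did not pass, with a median of 0.16: Lig1, DNA ligase I (0.60 ± 0.11, adjusted p = 0.00471), Chaf1b, a chromatin assembly subunit (1.17 ± 0.21, adjusted p = 0.00519), and Uhrf1, which maintains DNA methylation behind the fork (1.28 ± 0.24, adjusted p = 0.00604).

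Of 16 other G1 and G1/S regulators tested 4 rose, against 6.23% of all genes tested, with a median log2 fold change of 0.17: Myc (0.69 ± 0.16, adjusted p = 0.0174, edgeR), E2f3 (0.53 ± 0.14, adjusted p = 0.0308), Mycn (0.72 ± 0.20, adjusted p = 0.0381) and Cdk4, the kinase partner of the D-type cyclins (0.20 ± 0.057, adjusted p = 0.0492). Of 8 CDK inhibitors and retinoblastoma family genes tested 1 rose (12.5%), and the median was 0.00. That gene, Cdkn1a (chr17:29090976-29100727, plus strand, GRCm38), encodes the inhibitor p21, which stops the cycle in G1 and G2. Its level was 29.1, 66.1, 56.8 and 44.8 CPM in libraries labelled knockout and 14.5, 9.50, 9.31 and 10.1 CPM in those labelled wildtype, a log2 fold change of 2.19 ± 0.27 (SE; edgeR, adjusted p = 0.00173). Knockout 1 was the lowest of the libraries labelled knockout for Cdkn1a, at 0.520 of the mean of the other 3, and also for Kif23, Mybl2 and Spag5. Among the genes of these lists and the 46, the lowest such ratio, 0.233, was that of Pttg1, the anaphase inhibitor securin, named after its values were seen, with 9.88, 44.8, 37.7 and 44.6 CPM in libraries labelled knockout and 78.9, 66.5, 37.3 and 37.6 CPM in those labelled wildtype (log2 fold change -0.68 ± 0.50, adjusted p = 0.436, edgeR).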

How the data were processed

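RNA of 8 whole mouse kidneys was sequenced, 4 labelled knockout and 4 labelled wildtype. The deposited values are whole-number counts per gene and library, without normalization; per the submitters' processing notes the authors used STAR, HTSeq and edgeR with the build mm9, with versions, roles and annotation not given in the sources used here. Although the kit keeps strand, the name of each deposited table says that strand was ignored in counting, and 16 of the 46 genes share exon bases with another counted gene. Of 37583 identifiers, 32860 had a symbol in the reference name table. Promoters and coordinates are of GRCm38 and were not converted from mm9.

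Genes were kept by filterByExpr, scaled by TMM and fitted robustly with edgeR 4.0.16 (in R 4.3.3), without covariates. The two-sided quasi-likelihood test was adjusted by Benjamini and Hochberg's method over all 15228 genes. The SE is the log2 fold change divided by the square root of F. Log2 CPM used a prior count of 2. Single genes were also compared by exact two-sided permutation over 70 assignments. Every called gene of the 46 had a permutation p of 0.0286, the smallest that 70 assignments allow. Uncalled genes without overlap between the groups, such as Cdk2 and Mcm2, had the same value, so it does not set the called genes apart. Alternatives were DESeq2 1.42.0, limma voom (limma 3.58.1), other scalings and filters, a replicate block, and fits without 1 library or without knockout 1 and 4. Gene lengths are merged exons of GENCODE M21.

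The 46 genes, the other lists and the settings were chosen with earlier results of these data known. The text names all 46 genes, up to 6 called genes of each related list, and Tfap2b; promoters are those of the 3 mitosis and 2 other genes with the smallest adjusted p among genes with a motif in their window. Libraries of the same group differed by far more than counting noise (chi-square per degree of freedom 9.36 to 25.1). On simulated data over the 15228 genes of this comparison, with 50 genes planted at each size, edgeR found 54% of 1.5-fold, 82% of 2-fold, 98% of 4-fold and 98% of 8-fold changes, with 10 false calls, 5.68% of all calls. The planted genes were drawn at random from all genes tested, so these shares do not give the recovery among the 46 genes.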

Additional observations from a re-analysis of the deposited data

Results flagged for a closer look

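A library stood apart from the other 3 of its group in 14 of 100 groups of 4 values examined, by the gap to its neighbour as a share of the group's range, above Dixon's critical value for 4 samples. For a single group, chance gives about 1 in 20. The groups come from the same 8 libraries and are not independent, so these 14 groups cannot be judged against that share. Knockout 1 was the highest of its group in 7 of them: the share was 0.888 for Mki67, 0.838 for Top2a, 0.924 for Ccnb2, 0.929 for Bub1b, 0.884 for Birc5, 0.855 for Tpx2, and 0.865 for the mean of the tested mitosis genes. Wildtype 1 was the lowest of its group for Ccnd1 (0.860), Mcm7 (0.904), Mybl2 (0.833) and Prc1 (0.890). Wildtype 3 was the highest for Pcna (0.943), and wildtype 4 for Rrm2 (0.933) and Foxm1 (0.875).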

How the results depend on the processing

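With all 8 libraries, 1817 genes were called over all genes tested, among them 20 of the 46 genes. Of 17 alternatives, all kept the calls of Cdk1, Ccnb2, Ccnd1, E2f2 and Kif23. Fits that left out each library in turn gave 1076 to 1940 calls over all genes, 10 to 20 of the 46, 2 to 3 of G1, 0 to 2 of replication, 7 to 16 of mitosis, 1 to 2 of the CDK inhibitors and retinoblastoma family, 1 to 3 of other G1 genes, 3 to 3 of other replication genes and 5 to 7 of other mitosis genes. Without knockout 1 and 4 there were 912 calls over all genes, 7 of the 46, 2 of G1, 0 of replication, 5 of mitosis, 1 of other G1, 0 of other replication and 2 of other mitosis genes.

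The replicate numbers showed no pairing of the samples: the deviations of same-numbered libraries had correlations of -0.215, -0.210, -0.0527 and 0.157. Differently numbered pairs ran from -0.32 to 0.349, and so few libraries cannot exclude a pairing. A fit with the replicate number as a block called 1094 genes, 7 of the 46, 2 of G1, 0 of replication, 5 of mitosis, 1 of other G1 and 3 of other mitosis genes. Scaling by library totals only moved the median of all genes by 0.11 on the log2 scale, and called 31 of the 46, 5 replication and 10 other mitosis genes, where the share of all genes tested that rose was 10.9%, against 6.23% with TMM. Calls among replication genes numbered 3 with DESeq2 and 2 each with the stricter filter, with no filter and with upper quartile factors, and other mitosis genes numbered 11 with DESeq2. Over all genes these fits called 2417 of 15228 with DESeq2, 1785 of 14333 with the stricter filter, 1801 of 25225 with no filter and 1816 of 15228 with upper quartile factors.

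Directions reversed in genes that were not called: Ccnd2 (0.0339 with library totals, -0.146 to 0.0214 without 1 library), Mybl2 (0.066 with library totals, -0.167 to 0.0355 without 1 library), Pcna (-0.0575 to 0.195 without 1 library, -0.12 without knockout 1 and 4), Bub1b (-0.26 to 1.01 without 1 library, -0.26 without knockout 1 and 4) and Mcm6 (-0.12 without knockout 1 and 4). The cause was not tested.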
